A study of Mus musculus with 2 samples.

Results

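The AMH, inhibin, activin and follistatin genes are 10 secreted-factor, binding-protein and receptor genes chosen by symbol from the 31057 genes counted, namely Amh, Inha, Inhba, Inhbb, Fst, Fstl3, Amhr2, Acvr2a, Acvr2b and Acvr1b. All 10 were found, and all passed the low-count filter in each comparison of cell types. Whole ovaries from CD1 pups, taken on postnatal day 2, were dissociated and their cells captured on the Chromium system as 2 libraries, replicates 1 and 2, each from pooled ovaries of pups of one female, with no treatment and no altered allele. CD1 is an outbred stock, and at this age the ovary holds mostly primordial follicles and the first growing ones. Each captured transcript was counted once through its unique molecular identifier (UMI). The libraries, not the cells, are the replicates (n = 2).

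AMH is a hormone that granulosa cells secrete from the start of follicle growth, and it acts through its own type II receptor, AMHR2. Inhibins and activins share β subunits, encoded by Inhba and Inhbb. A β subunit paired with the α subunit encoded by Inha is an inhibin, a pair of β subunits is an activin, and follistatin (Fst) and its relative FSTL3 bind activin and keep it from its receptors. Activin binds the type II receptors ACVR2A and ACVR2B, which recruit the type I receptor ACVR1B, and inhibin lowers pituitary FSH.

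Replicate 1 held 4094 cells with 54471790 UMIs and replicate 2 held 4847 cells with 59074480 UMIs. After filters on genes and mitochondrial counts, 3738 and 4464 cells were clustered without the 10 genes. Doublets were then left out, which kept 3636 and 4371 cells, and clusters were named from marker genes. In replicates 1 and 2 this gave 1656 and 609 granulosa-like, 1446 and 2534 interstitial-like, 238 and 690 germ-like, 186 and 298 mesothelial-like, 60 and 34 endothelial-like and 33 and 65 immune-like cells. The markers Upk3b and Col1a2 lay where the names put them. Upk3b stood at 489 and 537 CPM (UMIs of a gene per 1000000 UMIs of the cell type, here without further scaling) in mesothelial-like cells and below 8 elsewhere. Col1a2 stood at 2651 and 2728 in interstitial-like cells. The granulosa markers were shared more widely. Wnt6 stood at 396 and 388 in granulosa-like cells and at 407 and 393 in mesothelial-like cells. Irx3 was higher in mesothelial-like cells (247 and 233 against 137 and 210), and Kitl was no lower there (118 and 83.0 against 97.4 and 82.8). Wnt4 was higher in interstitial-like cells, at 129 and 212 against 53.0 and 49.96 in granulosa-like cells. Foxl2 was highest in granulosa-like cells, at 319 and 332. It stood at 18.7 and 25.8 in mesothelial-like cells but at 97.4 and 152 in interstitial-like cells. Of the cell barcodes, 21 occurred in both libraries. The makeup of the libraries differed, since 2 of the 3 germ-like clusters lay almost wholly in 1 library (10 and 417 cells, and 197 and 11 cells) and the granulosa-like cluster led by Serpina1a held 494 and 25 cells.

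The promoters of the genes whose place in the ovary differed most were read first, because Amhr2 was shared by granulosa-like and mesothelial-like cells, Inhbb was mostly granulosa-like, and Inhba was found in granulosa-like and interstitial-like cells. The 250 bases before the RefSeq start are given on the strand of the gene, with matches to AGGTCA on either strand, the hexamer bound by many nuclear receptors, in capitals. None of these stretches overlapped an annotated exon.
Amhr2, chr15:102445117-102445366 (GRCm38.p6, + strand): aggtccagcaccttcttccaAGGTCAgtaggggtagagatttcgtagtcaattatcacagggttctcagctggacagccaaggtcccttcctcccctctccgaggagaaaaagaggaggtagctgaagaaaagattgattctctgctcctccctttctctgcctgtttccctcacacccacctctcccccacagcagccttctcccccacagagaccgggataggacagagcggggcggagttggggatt
Inhbb, chr1:119422249-119422498 (GRCm38.p6, - strand): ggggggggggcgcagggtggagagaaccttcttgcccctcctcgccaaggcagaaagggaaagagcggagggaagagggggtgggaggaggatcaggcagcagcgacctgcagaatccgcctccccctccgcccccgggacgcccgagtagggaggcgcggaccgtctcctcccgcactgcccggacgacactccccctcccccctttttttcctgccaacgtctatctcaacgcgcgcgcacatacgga
Inhba, chr13:16011601-16011850 (GRCm38.p6, + strand): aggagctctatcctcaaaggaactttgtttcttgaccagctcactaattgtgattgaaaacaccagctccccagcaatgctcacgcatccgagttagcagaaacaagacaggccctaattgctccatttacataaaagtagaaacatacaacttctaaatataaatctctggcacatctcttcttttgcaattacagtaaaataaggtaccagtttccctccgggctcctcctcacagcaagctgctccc

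Only the Amhr2 stretch of these held AGGTCA, beginning 230 bases before the start. Its GC content was 55.2%, against 68.0% for Inhbb and 43.2% for Inhba. RefSeq promoters were at hand for 8 of the 10 genes. AGGTCA occurred in 3 of the 8 (Amhr2, Inha and Fstl3) and in 14.0% of all 32851 promoters of this length. CAGAC, a short motif of SMAD proteins, occurred in 4 of the 8 and in 42.2% of all. AGATAA, bound by GATA factors, and TGACGT, the core of cyclic AMP response elements, occurred in 0 of the 8 and in 9.99% and 6.47% of all. These are matches of letters and not binding sites.

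The ligand genes and Fst had their highest levels in granulosa-like cells. In edgeR's quasi-likelihood test of each cell type against the summed rest, with Benjamini-Hochberg adjustment and a threshold of 2-fold, 6 of the 10 genes were higher in granulosa-like cells (16.9% of all genes tested) and 0 were lower (24.8% of all genes; 0 also by DESeq2). The 6 were Amh, Inha, Inhba, Inhbb, Fst and Amhr2, and the activin receptors and Fstl3 were not among them. Their levels follow as CPM after TMM scaling, a unit that compares cell types for 1 gene, not genes with each other.

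Amh (chr10:80805243-80807648, + strand) was nearly confined to granulosa-like cells. It stood at 111 in replicate 1 and 46.1 in replicate 2 there (78.6 ± 46.0, SD, n = 2), on 2343 and 363 UMIs. In the 5 other types it lay between 0 and 1.34. The libraries did not overlap between granulosa-like cells and any other type. The log2 difference from the rest was 7.02 ± 0.58 (SE, edgeR adjusted p = 0.000339). Endothelial-like and immune-like cells had 0 Amh UMIs. With both libraries pooled and a floor of 3 counts over each type, Amh was at least 45.9-fold and at least 23.8-fold higher in granulosa-like cells. No such bound was set for each library alone. Mesothelial-like cells came next, at 0.641 and 1.34, and differed from granulosa-like cells by a log2 of 6.22 ± 0.75 (edgeR, adjusted p = 0.000515). For pairs of cell types, calls were made at any fold, and 19.9% of all genes were called between granulosa-like and mesothelial-like cells. The lower neighbours in the order of Amh did not differ beyond their spread.

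The share of cells with an Amh UMI was 39.6% in replicate 1 (exact 95% binomial interval 37.2 to 42.0) and 17.9% in replicate 2 (14.9 to 21.2). In immune-like cells, which should lack Amh, 0 of 33 and 0 of 65 cells had a UMI, which allows shares of up to 9.09% and 4.62%. Median depths were 9804.5 and 9173 UMIs in granulosa-like cells and 8919 and 6499 in immune-like cells. Intervals and floors cover counting error only. With every cell thinned to 2000 UMIs, the shares were 14.4% and 7.09%, and 7 and 17 shallower granulosa-like cells were left out.

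Inha (chr1:75507077-75510366, + strand), the α subunit that turns β subunits into inhibins, stood at 819 and 771 in granulosa-like cells and at 66.3 and 68.8 in mesothelial-like cells. The log2 difference of granulosa-like cells from the rest was 5.27 ± 0.46 (edgeR adjusted p = 0.000408). That from mesothelial-like cells, the next type, was 3.56 ± 0.82 (edgeR adjusted p = 0.0103). Cells with an Inha UMI made up 51.6% and 47.7% of mesothelial-like, 88.7% and 77.5% of granulosa-like and 8.37% and 4.93% of interstitial-like cells, against 3.03% and 0% of immune-like cells.

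Inhbb (chr1:119415465-119422248, - strand), the β subunit of activin B and inhibin B, stood at 54.2 and 56.0 in granulosa-like cells and at 11.2 and 8.49 in mesothelial-like cells, and at 2.23 or below in the other types. The log2 differences were 5.06 ± 0.17 from the rest (edgeR adjusted p = 5.24e-05) and 2.50 ± 0.36 from mesothelial-like cells (edgeR adjusted p = 0.000975).

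Inhba (chr13:16011851-16031621, + strand), the β subunit of activin A and inhibin A, had a second place of expression. It stood at 34.5 and 17.8 in granulosa-like cells and at 15.2 and 11.4 in interstitial-like cells, and both libraries of each lay apart. The log2 difference between them was 1.00 ± 0.37 (edgeR adjusted p = 0.0530; 39.0% of all genes called). With the library as a block, since the cell types of a library come from the same animals, it passed (0.93, edgeR adjusted p = 0.0160). Interstitial-like cells in turn exceeded mesothelial-like cells, at 3.85 and 2.01, by a log2 of 2.23 ± 0.52 (edgeR adjusted p = 0.00635; 31.9% of all genes called). Against the rest, granulosa-like cells were higher by 2.52 ± 0.36 (edgeR adjusted p = 0.00219).

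Within the interstitial-like cells, Inhba differed by cluster. The cluster led by Mfap5, Tagln and Acta2, genes of contractile and fibrillar matrix cells, held 46.5 and 41.6 CPM on 10 and 15 UMIs. The cluster led by Pdlim3 held 29.0 and 26.0. The perivascular-like cluster led by Rgs5 had 0 Inhba UMIs in 53 and 52 cells. The granulosa-like cluster led by Hsd3b1 was above all of these, at 70.4 and 71.4. Clusters were made from these cells, so their levels are a description without a test.

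**Figure D1:**
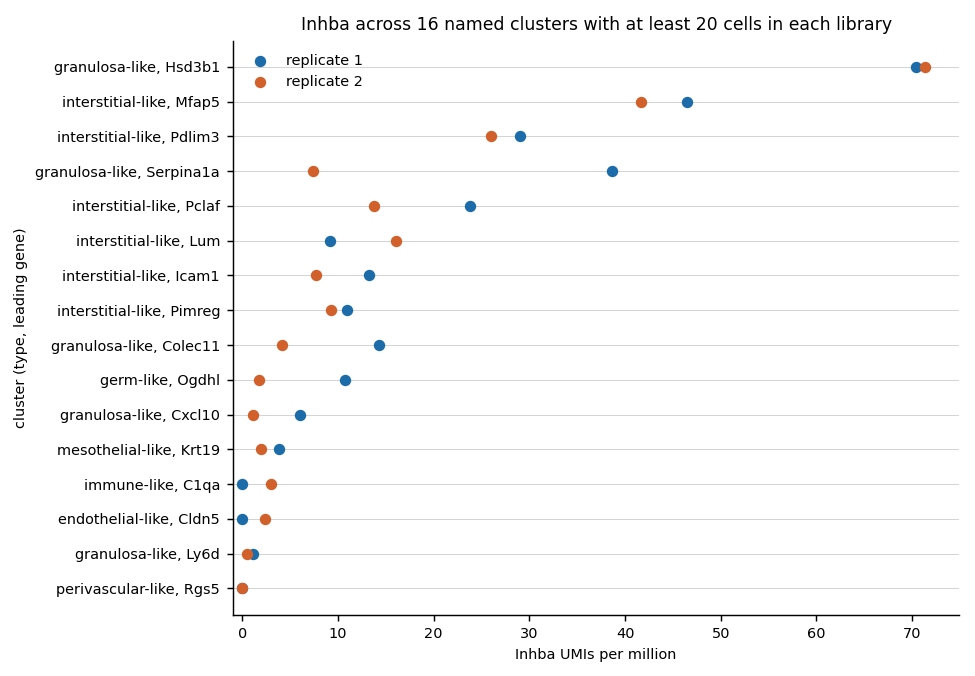
Inhba level (CPM, x axis) in named clusters with at least 20 cells in each library (y axis, type and leading gene, 1 interstitial-like cluster left out), with 1 point per library. The granulosa-like Hsd3b1 cluster lies at 70.4 and 71.4, the interstitial-like Mfap5 cluster at 46.5 and 41.6, and the perivascular-like Rgs5 cluster at 0 in both libraries.

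Fst (chr13:114452290-114458951, - strand), which binds activin almost irreversibly, stood at 681 and 349 in granulosa-like cells, so that the libraries differed more than for Inha or Inhbb. Mesothelial-like cells held 38.1 and 47.1, and interstitial-like cells 5.22 and 2.14. The log2 differences of granulosa-like cells were 5.58 ± 0.59 from the rest (edgeR adjusted p = 0.000743) and 3.59 ± 0.84 from mesothelial-like cells (edgeR adjusted p = 0.0123). Immune-like cells had 0 Fst UMIs, and at the floor of 3 counts, with both libraries pooled, granulosa-like cells were at least 150-fold higher.

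Fstl3 (chr10:79777272-79782630, + strand), a follistatin relative, was not led by granulosa-like cells as a whole. Mesothelial-like cells held 13.5 and 12.5, granulosa-like cells 5.03 and 8.26, and interstitial-like cells 5.31 and 3.45. Mesothelial-like cells exceeded the rest by a log2 of 1.88 ± 0.26 (edgeR adjusted p = 0.00159). The step from mesothelial-like to granulosa-like cells did not pass (0.99 ± 0.38 in log2, edgeR adjusted p = 0.0991). Endothelial-like and immune-like cells had 0 UMIs, where the floor of 3 counts allows up to 2.17 and 4.19 CPM before scaling.

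Amhr2 (chr15:102445367-102454633, + strand), the receptor of AMH, was as high in mesothelial-like as in granulosa-like cells within the error of the fit. It stood at 499 and 490 in granulosa-like cells and at 410 and 430 in mesothelial-like cells. The log2 difference was 0.23 ± 0.63 (edgeR adjusted p = 0.857), which does not show that the levels are equal. The next type, endothelial-like cells at 7.31 and 35.7 (in replicate 2, 16 UMIs from 2 cells), was lower than mesothelial-like cells by a log2 of 4.57 ± 0.90 (edgeR adjusted p = 0.00384; 21.3% of all genes called). Cells with a UMI made up 97.8% and 95.4% of granulosa-like, 96.2% and 96.3% of mesothelial-like and 6.78% and 6.08% of interstitial-like cells. Ligand and receptor thus had different distributions, since Amh in mesothelial-like cells rested on 2 and 6 UMIs.

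Of the 10 genes, 2 were higher in mesothelial-like cells than in the rest (Amhr2 and Fstl3; 10.9% of all genes) and 4 were lower (Amh, Inha, Inhba and Fst; 20.2% of all genes). With the other types weighted equally, those with 0 UMIs of a gene included, 4 were higher and 0 lower, so the lower calls depend on that reference. Amhr2 was 1.60 ± 0.36 higher on the log2 scale (edgeR adjusted p = 0.0118).

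The activin receptors were spread across the ovary. Acvr2a (chr2:48814109-48903269, + strand) stood between 4.96 and 15.6 in every type except immune-like cells, where it had 0 UMIs, and it was not called in any type against the rest. Endothelial-like cells ranked first, at 10.4 and 15.6 on 10 and 7 UMIs, and did not differ from mesothelial-like cells at 8.97 and 7.59 (0.58 ± 0.47 in log2, edgeR adjusted p = 0.438).

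Acvr2b (chr9:119402118-119434995, + strand) was highest in germ-like cells, at 24.8 and 28.5, followed by granulosa-like cells at 16.0 and 22.7. Interstitial-like cells held 3.76 and 7.38. It was the 1 gene of the 10 that was higher in germ-like cells (log2 1.05 ± 0.16, edgeR adjusted p = 0.00480; 29.8% of all genes were called higher and 31.2% lower), with a difference near the 2-fold threshold. The call was lost with RLE factors (0.9996), by library size only (0.97), without the low-count filter (0.86), at a 4-fold threshold and after thinning (0.77, edgeR adjusted p = 0.159). The step from germ-like to granulosa-like cells did not pass (0.48 ± 0.30, edgeR adjusted p = 0.172; 73.8% of all genes called) but passed with the library as a block (edgeR adjusted p = 0.0441). After thinning to 2000 UMIs per cell, the difference was -0.058 (edgeR adjusted p = 0.930), so no order of these types is read from it. In interstitial-like cells Acvr2b was lower than in the rest (log2 -1.69 ± 0.34, edgeR adjusted p = 0.00395). Immune-like cells had 0 Acvr2b UMIs and were also called lower (edgeR adjusted p = 0.0116).

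Acvr1b (chr15:101174067-101213684, + strand), the type I receptor of activin, stood between 2.23 and 6.96 in all 6 types. Germ-like cells ranked first at 6.96 and 6.91 and granulosa-like cells second at 4.65 and 5.21, and the step did not pass (0.50 ± 0.27, edgeR adjusted p = 0.121). It was called in no type against the rest.

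**Figure D2:**
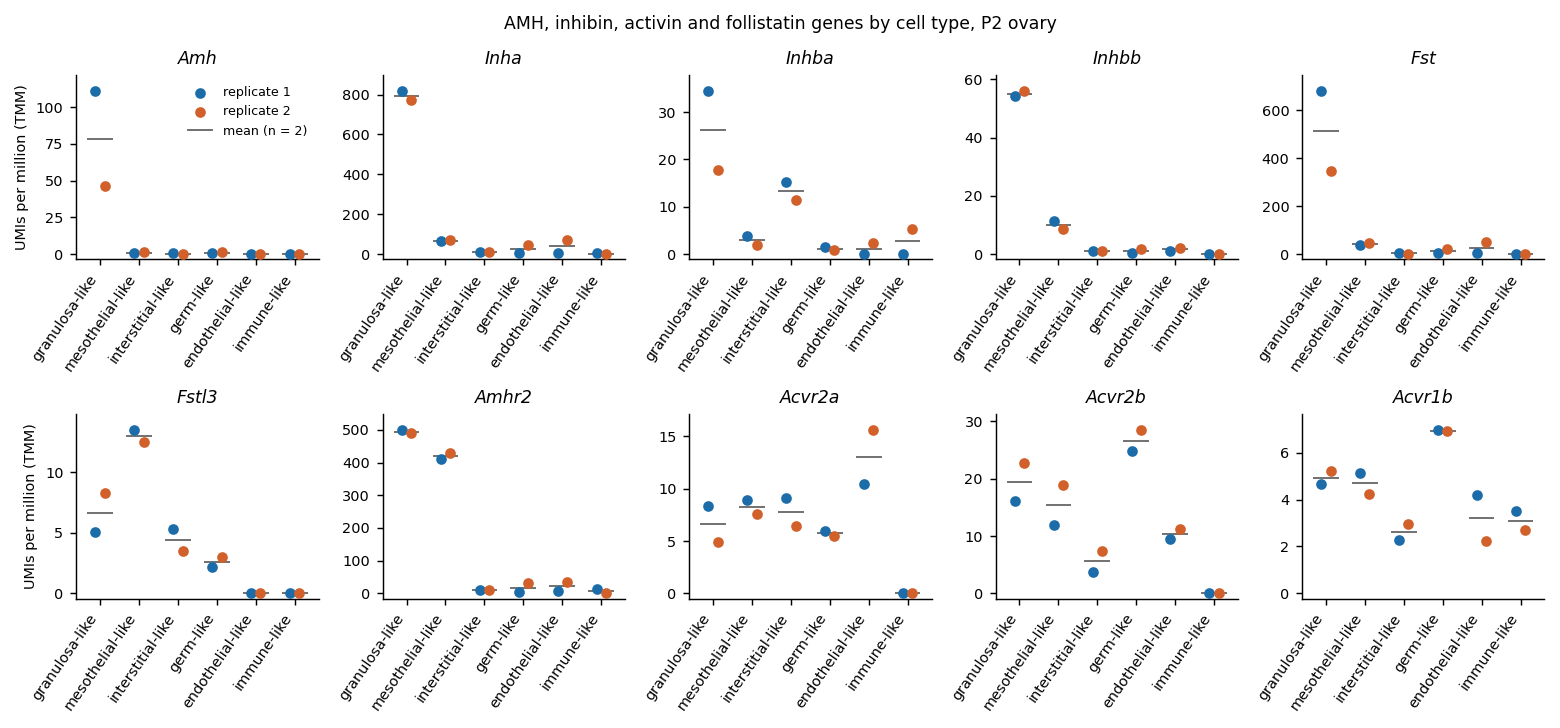
Level of each gene (y axis, CPM after TMM scaling, linear, one scale per panel) in the 6 cell types (x axis), with 1 point per library and a line at their mean. Amh, Inha, Inhba, Inhbb and Fst peak in granulosa-like cells, Amhr2 stands at 499 and 490 in granulosa-like and 410 and 430 in mesothelial-like cells, and Acvr2a, Acvr2b and Acvr1b are spread over most types.

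In interstitial-like cells 6 of the 10 genes were lower (27.3% of all genes) and 0 higher (17.3% of all genes). Endothelial-like cells had 5 lower (14.7%) and 0 higher (9.72%), and immune-like cells had 4 lower (11.1%) and 0 higher (9.98%). DESeq2 also called 0 higher in these 3 types. These lower calls depended on the reference, since with the other types weighted equally 0 genes were lower in interstitial-like and endothelial-like cells, 1 in germ-like and 2 in immune-like cells, and Amh, Fst and Fstl3 in germ-like and Inha and Fst in endothelial-like cells changed sign. The equal weighting averages log levels over types, also over types with 0 UMIs of a gene. For Amh, Fst and Fstl3 the sign therefore rests in part on how the fit treats 0 counts. In germ-like cells 7 were lower (31.2% of all genes), among them Amh, Inha, Inhbb and Fst. With the library as a block Inha and Fst did not pass there (edgeR adjusted p = 0.0547 and 0.0778).

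The germ-like values of the granulosa genes differed between the libraries. Inha stood at 5.19 and 45.2, Amhr2 at 3.92 and 30.3 and Fst at 2.66 and 23.1. The granulosa markers were also higher in replicate 2, by unequal steps. All 5 (Foxl2, Wnt6, Kitl, Irx3 and Wnt4) were above 0 in germ-like cells of both libraries. Their summed level was 9.86 CPM in replicate 1 and 62.0 in replicate 2, against 1002 and 1062 in granulosa-like cells. Foxl2 stood at 2.13 and 23.2 in germ-like cells, and Kitl at 1.89 and 3.58. The summed interstitial markers were higher there in replicate 2 as well, at 39.3 and 125. In replicate 2, germ-like cells held 1.49 Inha UMIs and 0.763 Fst UMIs per Amhr2 UMI, against 1.57 and 0.712 in granulosa-like cells of that library. In replicate 1 the ratios were 1.32 and 0.677, against 1.64 and 1.36. In mesothelial-like cells they were 0.162 and 0.0930 in replicate 1 and 0.160 and 0.109 in replicate 2. The part of granulosa RNA in the germ-like values was not tested. In endothelial-like cells of replicate 2, the 32 Inha UMIs came from 3 cells and the 22 Fst UMIs from 1 cell.

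Among granulosa-like cells, the genes split by cluster. The cluster led by Hsd3b1, with Hsd17b1 and Slc18a2 also among its 10 leading genes, held 458 and 134 cells and had the highest levels of Amh, Inha, Inhbb and Inhba. Hsd3b1 and Hsd17b1 encode enzymes of steroid synthesis. Amh stood there at 274 and 184 CPM, against 89.3 and 22.3 in the Serpina1a cluster, 39.4 and 11.8 in the Colec11 cluster, 3.87 and 1.09 in the Cxcl10 cluster, which is led by inflammatory and stress genes, and 1.08 and 0.967 in the Ly6d cluster. The Ly6d cluster held 103 and 200 cells, and it passed 4 of the 6 mesothelial markers beside 4 of the 5 granulosa markers. Whether its uneven share bears on the library differences of granulosa-like cells was not tested.

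Inhbb stood apart in a sharper way, at 144 and 191 in the Hsd3b1 cluster and between 12.6 and 24.8 in the 4 others. Inha fell in steps, from 1600 and 2073 in the Hsd3b1 cluster to 117 and 122 in the Ly6d cluster. Fst was spread more widely, at 883 and 691 in the Hsd3b1 cluster, 907 and 553 in the Serpina1a cluster, 571 and 374 in the Colec11 cluster and 138 and 84.6 in the Ly6d cluster. Amhr2 was lowest in the Hsd3b1 cluster and highest in the Colec11 cluster of both libraries, and stayed between 331 and 714 throughout. Fstl3 was highest in the Ly6d cluster, at 16.2 and 14.99, against 2.48 to 7.40 in the others.

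**Figure D3:**
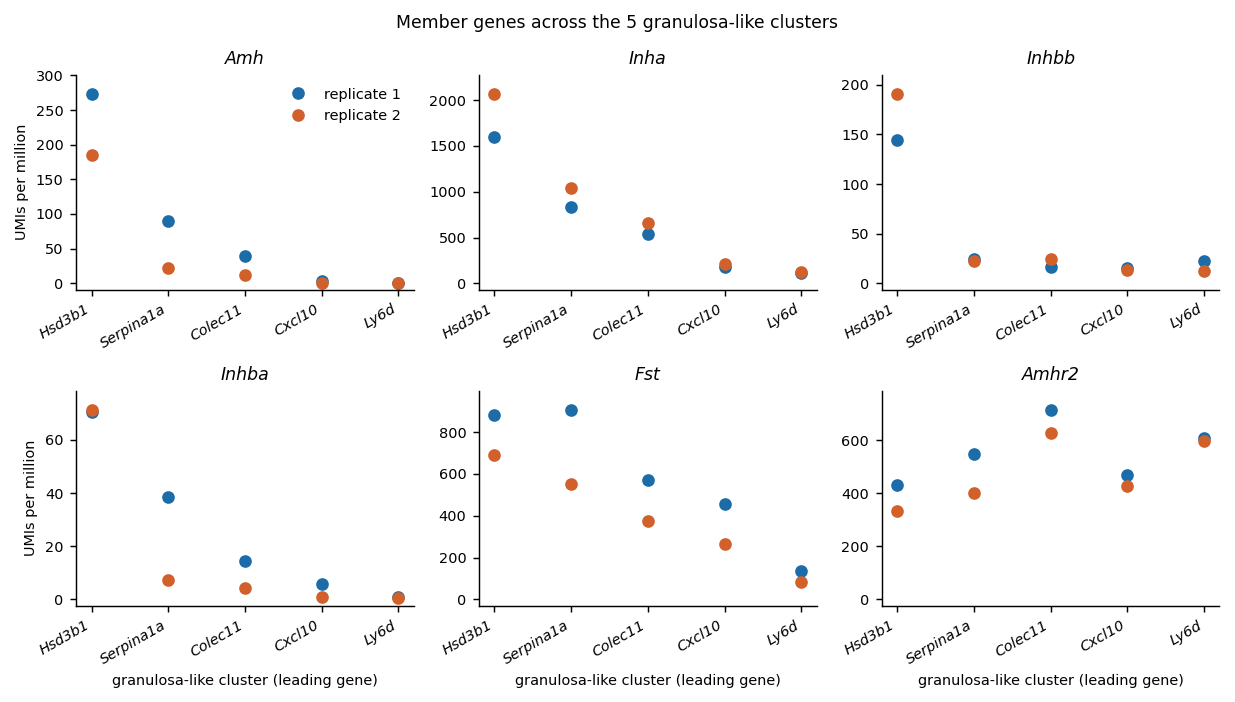
Levels of 6 genes (y axis, CPM, linear, one scale per panel) in the 5 granulosa-like clusters named by their leading gene (x axis), with 1 point per library. Inhbb lies at 144 and 191 in the Hsd3b1 cluster and between 12.6 and 24.8 elsewhere, whereas Amhr2 stays between 331 and 714 in all 5 clusters.

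Inhbb and Fst were each detected more often in cells with Amh than in cells without it. The pairing of Amh with Inhbb and with Fst was part of how the genes were chosen, so the values of these pairs are a description. Cells were thinned to 2000 UMIs, and a cell with at least 1 UMI of a gene is called its carrier. Of 1649 and 592 granulosa-like cells, 237 and 42 were Amh carriers. Inhbb was detected in 13.5% of them in replicate 1 (32 cells, exact 95% interval 9.42 to 18.5) and 19.0% in replicate 2 (8 cells, 8.60 to 34.1), against 6.02% (4.84 to 7.39) and 5.45% (3.71 to 7.70) of the other granulosa-like cells. The mean difference was 10.5 ± 4.32 percentage points (SD, n = 2). Its size depended on depth and threshold, at 26.1 with 4000 UMIs per cell, 38.8 without thinning and 5.37 where a carrier needed 2 UMIs.

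Fst was not missing from Amh carriers. It was detected in 76.4% (70.4 to 81.6) and 73.8% (58.0 to 86.1) of Amh carriers, against 63.5% and 36.7% of other cells. Of 1078 and 233 Fst carriers, 181 and 31 also had an Amh UMI, and 897 and 202 had none at this depth. Most granulosa-like cells had none either, since Amh carriers made up 14.4% and 7.09% of them. Amh without Fst was found in 56 and 11 cells. Inha was detected in 93.2% and 88.1% of Amh carriers against 57.7% and 47.1% of other cells, and Inhba in 10.1% and 11.9% against 5.03% and 2.18%. Amhr2 was not more frequent in Amh carriers, at 62.9% and 57.1% against 67.3% and 63.5%, with overlapping intervals in both libraries.

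The co-detection of Amh and Inhbb largely followed the clusters. The Hsd3b1 cluster held 62.4% and 88.1% of the Amh carriers, against 27.5% and 20.8% of all granulosa-like cells. Within it, Inhbb was detected in 18.9% and 21.6% of Amh carriers and in 17.3% and 23.3% of the other cells, differences of 1.60 and -1.63 percentage points. Outside it, 4 of 89 and 0 of 5 Amh carriers held Inhbb. In replicate 1 this share was above that of the other cells outside the cluster. In replicate 2 it was below, on only 5 carriers. Fst within the Hsd3b1 cluster was found in 74.3% and 81.1% of Amh carriers against 74.5% and 68.6% of the other cells. This split was chosen after the clusters were seen.

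**Figure D4:**
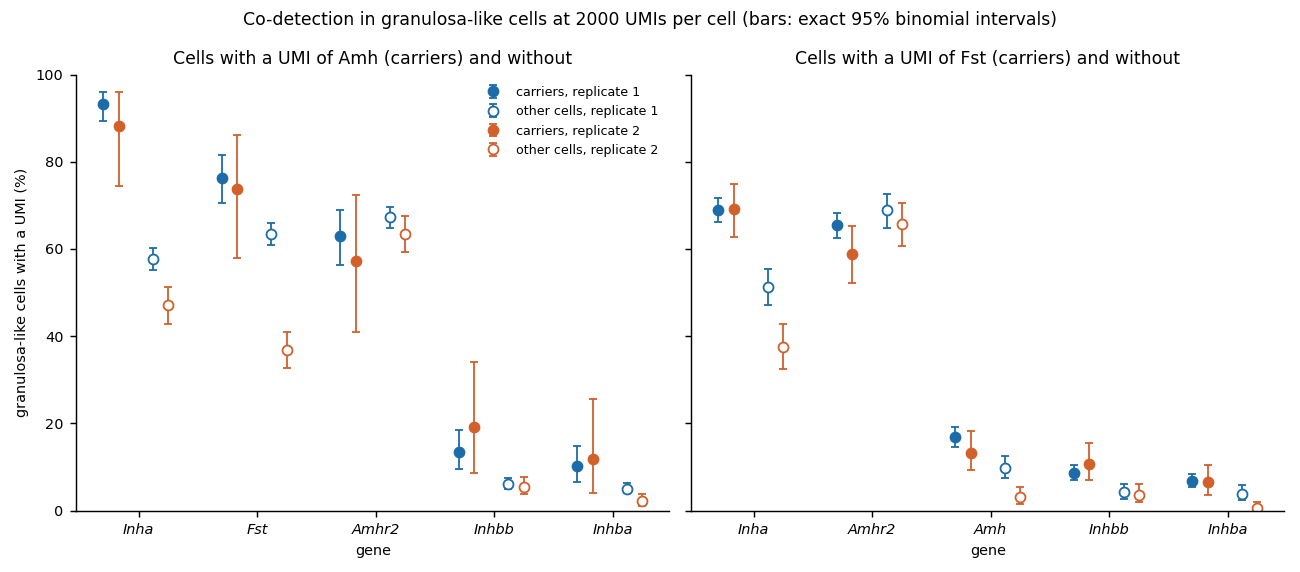
Share of granulosa-like cells with a UMI of each gene (y axis, %, cells thinned to 2000 UMIs) in carriers (filled) and other cells (open) of Amh (left) and Fst (right), with exact 95% binomial intervals and 1 colour per library. Inha, Fst and Inhbb are more frequent in Amh carriers, with Inhbb at 13.5% and 19.0% against 6.02% and 5.45%.

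Summed over cells, and leaving aside Amh, Inhbb and Fst, Inha was the only tested gene of the 10 called between Amh carriers and the remaining granulosa-like cells. Its level was 1706 and 2262 CPM in carriers and 758 and 703 in the others (log2 1.42 ± 0.18, edgeR adjusted p = 0.00970). Of 7799 genes tested, 26 were higher in carriers (0.333%) and 27 lower (0.346%). Inhbb stood at 84.6 and 114 against 35.4 and 35.0, a log2 difference of 1.38 ± 0.30, and Fst at 905 and 674 against 694 and 319, a log2 difference of 0.66 ± 0.30, both given without a test. Inhba did not pass in either fit (1.17 ± 0.48, edgeR adjusted p = 0.356, and 0.164 with the block). Fstl3, Acvr2a and Acvr1b did not pass the low-count filter here and were not tested. Under the block 331 genes were called in all.

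Between Fst carriers and the other granulosa-like cells, 0 of 8358 genes were called higher and 0 lower (0% and 0%), with 588 at an unadjusted p under 0.05, 2 called by DESeq2 and 383 with the library as a block. Amh stood at 128 and 94.4 CPM in Fst carriers and at 66.5 and 18.6 in the others (a log2 difference of 1.33, given without a test). Fstl3 and Acvr1b did not pass the low-count filter in this comparison and were not tested. Inha, Inhba and Inhbb were not called without the block and were called higher in Fst carriers with it (edgeR adjusted p = 4e-24, 0.00229 and 1.51e-05). The smallest of these values rest on a spread shared across genes and do not measure how well the libraries repeat.

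Counts for other genes of the pathway stand beside 16.9% of all genes higher and 24.8% lower in granulosa-like cells. Of 9 tested ligands of the family besides those above, 3 were higher in granulosa-like cells than in the rest (Bmp2 and Bmp4 among them) and 3 lower (Gdf9 and Bmp15 among them), with a median log2 difference of 0.15 against -0.05 over all genes. Bmp2 stood at 50.7 and 26.1 in granulosa-like and 14.5 and 17.8 in interstitial-like cells, and Gdf9, a growth factor of oocytes, at 450 and 402 in germ-like and 2.04 and 2.03 in granulosa-like cells. Of 8 tested receptors, 2 were higher (Bmpr2 and Tgfbr1) and 2 lower (Tgfbr2 and Acvrl1). Of 7 tested SMAD genes, 2 were higher and 0 lower, and Smad3, which carries the activin signal, stood at 159 and 178 in granulosa-like and 26.6 and 28.6 in mesothelial-like cells.

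Of 8 tested modulators, 2 were higher (Skil and Bambi) and 2 lower (Fstl4 and Wfikkn2). Of 4 tested convertases, proteases that cut precursors of this family, 2 were higher (Pcsk6 and Pcsk5) and 0 lower, with Pcsk6 at 323 and 380 in granulosa-like and 51.3 and 50.9 in mesothelial-like cells. Of 9 transcription factors listed for granulosa cells, 8 were higher and 0 lower, with a median log2 difference of 2.19, and the 8 include Foxl2, a marker used to name these cells. Of 7 tested genes listed for granulosa cells of growing follicles, 6 were higher and 1 (Igfbp5) lower, and of 7 listed for pregranulosa cells 4 were higher, with the naming marker Wnt6 among them, and 1 (Krt19) lower.

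Against the remaining granulosa-like cells, Amh carriers had more Hsd3b1 (281 and 320 against 81.8 and 34.0 CPM, log2 2.28 ± 0.35, edgeR adjusted p = 0.0135) and more Hsd17b1 (137 and 149 against 42.5 and 35.0, log2 1.83 ± 0.27, edgeR adjusted p = 0.0116). They had less Gng13, listed here for pregranulosa cells, at 27.5 and 34.3 against 183 and 285 (log2 -3.01 ± 0.38, edgeR adjusted p = 0.00970). Gng13 was also higher in mesothelial-like cells than in the rest (log2 4.22 ± 0.38, edgeR adjusted p = 0.000309), and was a leading gene of the Ly6d cluster. Hsd3b1 and Hsd17b1 were 2 of 6 tested genes listed for growing follicles, and Gng13 was 1 of 5 listed for pregranulosa cells. Of all genes, 0.333% were higher and 0.346% lower. Without a call, Igfbp5 of the first list was lower in carriers (29.6 and 22.8 against 52.8 and 66.1). Wnt4 of the second list was higher (46.5 and 57.1 against 40.0 and 37.8). Of all called genes, 26 were higher and 27 lower, and 47 moved over 2-fold the same way in both libraries with enough UMIs to be ranked. The 8 of largest absolute difference were all lower in Amh carriers. They were Rnd1, Nrarp, Aldh1a2, Ctsc, Kcne1l, Colec11 and the metallothioneins Mt1 and Mt2. Rnd1 stood at 0 in carriers of both libraries, and Nrarp and Ctsc at 0 in the 42 carriers of replicate 2. The size of these 3 differences therefore rests in part on 0 counts. Mt1 stood at 93.0 and 114 against 433 and 1207 CPM.

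The genes most like Amh, Inha, Inhbb, Fst and Inhba were named by Pearson's r of log levels over 34 points, 17 clusters in each of 2 libraries, which share depth and cell makeup within a library. Amh was most like Sel1l3 (0.944), Tbca (0.914) and Pnmt (0.913), and Inha most like Kazald1 (0.957), Shisa6 (0.929) and Fst (0.928). Inhbb was most like Tnni3 and Spsb4 (both 0.895) and Tmem184a (0.885), and Fst most like Proser2 (0.950), Gm37350 (0.939) and Shisa6 (0.930). Inhba was most like Bex3 (0.798), Col8a1 (0.786) and Ntf5 (0.759). Inhba, Fst, Fstl3, Acvr2a and Acvr2b overlap an annotated antisense gene, and whether counting used strand is not given in the sources used here.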

How the data were processed

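Ovarian cells were captured as 2 droplet libraries. The authors deposited raw UMI counts, and the submitters' processing notes name Cell Ranger 3.0.2 and GRCm38. The labels and the methods give different kit versions. Here cells needed at least 500 genes and at most 10% mitochondrial UMIs. Doublets scored above a threshold set after the scores were seen (102 and 93 cells). Cells were clustered with scanpy 1.11.5 (1996 variable genes without the members, 30 components, resolution 1), and clusters were named "-like" from listed markers, so names may differ from those of the study. Raw counts were summed per library and type and tested in edgeR 4.0.16 (quasi-likelihood, TMM, filterByExpr, adjusted p under 0.05). DESeq2 1.42.0 was an alternative. The members, lists and tests were chosen with earlier results of these data known. All 10 members are named, from each list up to 4 called genes of largest fold, from the carriers the 8 called genes of largest fold, and the 3 genes most like a member. Types of a library come from the same animals, and deviations of types within a library correlated at 0.0159 to 0.251 over 14894 genes. P-values measure the spread between 2 libraries, estimated with information shared across genes. Fits with the library as a block leave little spread per gene to estimate. Their very small p-values rest on the shared estimate and do not measure how well the libraries repeat. The test was run on simulated counts with 200 genes changed 4-fold. It recovered 98.0% to 100% of them, with 2.44% to 6.54% of calls false. Those counts had the same spread for all genes and no pairing by library, so they do not stand for the real data. The values of 1 interstitial-like cluster are not reported here.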

Additional observations from a re-analysis of the deposited data

Results flagged for a closer look

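Members were also counted in cells that entered no comparison, and many values exceeded the limit for 0 counts, set at 3 counts over the group. The 7 below come from all 10 genes in the cluster led by globin genes, and from Amh and Inhbb in filtered cells. Others were above it too, such as Amhr2, Inha and Fst at 226, 245 and 208 CPM in filtered cells of replicate 1. In the unnamed cluster led by globin genes, 120 cells of replicate 2 with 151981 UMIs, Amhr2 stood at 118, Inha at 164 and Fst at 98.7 CPM, against a limit of 19.7. All 15 Fst UMIs came from 1 cell, and 64.0% of the 25 Inha UMIs from 5 cells. In the cells removed by the filter on genes and mitochondrial UMIs, Amh stood at 45.7 and Inhbb at 91.4 CPM in replicate 1 (356 cells, limit 3.19), and at 4.80 and 8.39 in replicate 2 (383 cells, limit 3.60). Which cells these transcripts came from was not tested.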

How the results depend on the processing

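Between 6 and 8 genes were higher in granulosa-like cells under all 13 alternatives. With the other types weighted equally, 0 genes were lower in interstitial-like, mesothelial-like or endothelial-like cells, 1 in germ-like and 2 in immune-like cells, and 1, 4 and 1 were higher in interstitial-like, mesothelial-like and endothelial-like cells. That setting reversed, on the log2 scale, Amh (1.4996), Fst (0.82) and Fstl3 (2.16) in germ-like, Acvr2b (0.49) in interstitial-like, Amh (1.64), Inha (1.43) and Fst (2.86) in mesothelial-like and Inha (0.068) and Fst (1.65) in endothelial-like cells. Amh, Fst, Fstl3 and Acvr2b had 0 UMIs in at least 1 type, so their values here rest in part on how the fit treats 0 counts. The gene higher in germ-like cells, Acvr2b, was lost (0) at 4-fold, with RLE factors, by library size only, without the low-count filter and after thinning. In mesothelial-like cells 0 were higher at 4-fold and after thinning and 1 with the per-cell gate, and 2 were lower at 4-fold and 0 after thinning and with the gate. The gate typed each cell by its own UMIs of a few markers, with Wnt6, Kitl and Irx3 among those of granulosa cells. It left 15 and 40 mesothelial cells. Of the mesothelial-like cells by cluster, 394 passed the gates of several types and 47 the mesothelial gate alone. In endothelial-like cells 3 were lower by DESeq2 and after thinning. Leaving out a library left 1 sum per type. Genes were then counted by a difference over 2-fold alone, without a test, also among the 13 alternatives above. Neighbouring types differed in 18 cases without the filter against 8, and among the 4 gated types in 10 without the filter, 8 after thinning and 0 with the gate against 5. Acvr2b between germ-like and granulosa-like cells turned to -0.058 after thinning.

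With the replicate block, 3 genes were higher in Amh carriers and 4 in Fst carriers, and Acvr2b in Fst carriers turned to 0.14 (0.11 at 4000 UMIs). Without the filter, at 4000 UMIs and without thinning, 2 were higher in Amh carriers, and in Fst carriers 4 without the filter and 2 without thinning. These counts took in Inhbb and Fst in Amh carriers and Amh in Fst carriers, pairs that were part of how the genes were chosen. For those pairs the counts are a description without a test. The Inhbb difference in Amh carriers was 26.1 percentage points at 4000 UMIs, 38.8 without thinning and 5.37 at 2 UMIs per carrier. It was -0.0178 within the Hsd3b1 cluster and -0.277 outside it, and the Fst difference was 6.15 within and 4.23 outside. For Inhbb, both of these means join libraries of opposite sign, and few Amh carriers of replicate 2 lay outside the cluster. Thinned to 2000 UMIs, mean shares in granulosa-like cells were 10.7% for Amh, 56.4% for Inha, 6.76% for Inhbb, 52.4% for Fst and 64.8% for Amhr2, and 57.1% for Amhr2 in mesothelial-like cells (95.9% with doublets kept, 81.7% with the gate). The causes were not tested. Both libraries limit precision, and low genes such as Acvr1b rest on few UMIs in small types.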

Other observations

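Interstitial-like cells held other members of the wider family. Of 9 tested ligands 5 were higher there and 2 lower, and of 8 tested receptors 4 were higher and 1 lower, beside 17.3% of all genes higher and 27.3% lower, with Acvrl1 and Tgfbr2 among those higher. Fstl1, a follistatin-like gene, stood at 377 and 360 CPM in interstitial-like cells and at 100 and 81.6 in granulosa-like cells. In mesothelial-like cells, 6 of 7 genes listed for pregranulosa cells were higher and 0 lower (10.9% and 20.2% of all genes), with Lgr5 at 209 and 153 CPM against 7.30 and 17.3 in granulosa-like cells. Krt19, a keratin also counted among the mesothelial markers here, stood at 777 and 622 against 4.36 and 7.12.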
